A study of Mus musculus with 48 samples.

Results

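The transcripts of 7 GABA-A receptor subunits were followed in astrocytes of the mouse brain: Gabra2, Gabra3, Gabra4, Gabra5, Gabrb1, Gabrb2 and Gabrg1. They were taken by symbol, and all 7 had a row in each of the 6 deposited tables, among 24421 gene symbols and 19 genes named as GABA-A subunits. The series held 48 libraries of total RNA from cells labelled astrocyte. Of these, 28 came from cortex, hippocampus and olfactory bulb at postnatal days 1, 7 and 14 (P1, P7, P14), with no genotype, strain or treatment in the labels, and with 3 libraries a group except 4 in the cortex at P14. The other 20 came from P28 animals labelled Gabbr1 control or Gabbr1 cKO, a conditional knockout of the gene for a GABA-B receptor subunit: 4 control and 4 cKO libraries from cortex, 2 and 4 from hippocampus, and 3 and 3 from olfactory bulb. Tamoxifen is given as the treatment of control and cKO alike for hippocampus, olfactory bulb and 3 cortex libraries (2 control, 1 cKO). No treatment is given for the other 5 cortex libraries (2 control, 3 cKO). Those 5 were deposited in a first round and the rest of the P28 libraries in a second. The labels name neither the Cre driver nor the way the astrocytes were separated, beyond a cited dissociation protocol.

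GABA-A receptors are pentameric chloride channels that open when GABA binds between an alpha and a beta subunit, and a gamma subunit in the complex sets synaptic placement and benzodiazepine sensitivity. GABA-B receptors, by contrast, signal through G proteins. Astrocytes express GABA-A receptors as well, and because glia hold chloride at a high concentration, opening these channels tends to let chloride out and depolarize the cell. The alpha subunits differ in where they are used: Gabra2 is typical of synaptic receptors of forebrain neurons, Gabra3 of immature cortex, and Gabra4 and Gabra5 of extrasynaptic receptors that carry tonic currents. Gabrb1 and Gabrb2 encode beta subunits, of which beta-2 is abundant in mature neurons, and Gabrg1 encodes a gamma subunit that is rare in most neurons and known from glia.

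Of the 7 genes, 4 lie next to each other on mouse chromosome 5. In the GENCODE annotation of GRCm38 (mm10), Gabrg1 spans chr5:70751047-70842617, Gabra2 chr5:70957597-71095849 and Gabra4 chr5:71569749-71658308, all on the minus strand, and Gabrb1 spans chr5:71658113-72149037 on the plus strand. From the first to the last base of these genes is 1399 kb in RefSeq, with Cox7b2 as the only other protein-coding gene inside, Gnpda2 as the next gene on one side and Commd8 on the other. Gabra4 and Gabrb1 start head to head and overlap by 388 bases in RefSeq, so that reads from the overlap could not be assigned without strand, and the sources used here do not give how strand was treated. Gabra5 lies at chr7:57407672-57510059, Gabrb2 at chr11:42419757-42629028 and Gabra3 at chrX:72432681-72656848.

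The 250 bases before the start site are printed for 3 cluster genes, which rose with age, and for Gabrb2, which followed another course, so that they can be set side by side. They are RefSeq sequence of GRCm38.p6, 5′ to 3′ on the gene's own strand, with capitals marking matches, on either strand, to TTGGC (an NFI site), ACAAT (a SOX site), TATAAA (the box named after its first letters) or GGGCGG (an Sp1 site, here GC box). The Gabrb1 sequence belongs to the second of its RefSeq start sites, and the Gabrb2 sequence to the first.
Gabrg1, chr5:70842618-70842867: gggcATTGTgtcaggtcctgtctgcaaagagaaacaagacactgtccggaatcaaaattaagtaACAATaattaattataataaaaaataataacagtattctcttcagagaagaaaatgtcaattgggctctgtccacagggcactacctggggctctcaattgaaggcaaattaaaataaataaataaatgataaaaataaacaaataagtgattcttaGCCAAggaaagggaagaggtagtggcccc
Gabra2, chr5:71095850-71096099: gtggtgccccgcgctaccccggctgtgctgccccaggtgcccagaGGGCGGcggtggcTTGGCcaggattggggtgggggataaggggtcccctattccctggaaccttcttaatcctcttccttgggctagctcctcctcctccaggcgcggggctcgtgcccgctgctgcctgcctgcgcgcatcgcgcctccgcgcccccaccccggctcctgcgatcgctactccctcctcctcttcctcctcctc
Gabrb1, chr5:71699682-71699931: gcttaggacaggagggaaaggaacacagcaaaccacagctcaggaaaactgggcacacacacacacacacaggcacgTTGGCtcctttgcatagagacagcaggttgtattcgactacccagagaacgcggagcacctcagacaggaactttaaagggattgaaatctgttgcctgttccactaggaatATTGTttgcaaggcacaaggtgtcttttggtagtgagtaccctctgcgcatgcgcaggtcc
Gabrb2, chr11:42420190-42420439: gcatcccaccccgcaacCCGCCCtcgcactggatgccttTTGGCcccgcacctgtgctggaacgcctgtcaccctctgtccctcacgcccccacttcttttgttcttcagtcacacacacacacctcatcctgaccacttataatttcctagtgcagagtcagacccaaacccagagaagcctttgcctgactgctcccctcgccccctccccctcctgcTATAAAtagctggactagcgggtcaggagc
The Gabrg1 window held 1 NFI match and 2 SOX matches, the Gabra2 window 1 GC box and 1 NFI match, and this Gabrb1 window 1 NFI and 1 SOX match. A TATA box 30 bases before the start site, 1 GC box and 1 NFI match were found for Gabrb2. The window of the first Gabrb1 start site and those of the later Gabrb2 start sites, not printed, held no match. Windows of the other members were not printed either. That of Gabra4 held GC box and NFI matches, and that of Gabra5 held none. Those of Gabra3 held a TATA box match and, in the first, a SOX match. TGACGTCA, the cyclic AMP response element, was also searched and was in none of the 11 windows of the 7 genes. These letters are common: of 32851 RefSeq promoter windows of 250 bases, 41.5% held TTGGC, 27.7% ACAAT, 12.4% TATAAA, 32.7% GGGCGG and 1.55% TGACGTCA. The matches describe the sequence and were not tested for binding.

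The libraries held 1773226 to 15008466 reads on genes, which were recovered from the deposited values. The ribosomal precursor Rn45s took 13.7% to 38.0% of the reads in 46 libraries and 0.594% and 0.476% in hippocampus P28 cKO replicate 2 and olfactory bulb P28 control replicate 2, so that P28 values of these regions are also given without them. The 10 astrocyte markers were all detected in every group, with a summed level of 21089.8 to 27859.6 normalized reads in the cortex at P1 and 495922 to 554224 at P14. The targeted gene, Gabbr1, was lower in every cKO library than in any control library of its region: 89.8 to 211 against 927 to 1930.1 normalized reads in the cortex, 151.7 to 379.9 against 779.8 to 824 in the hippocampus, and 63.6 to 99.5 against 184 to 318 in the olfactory bulb. By limma its log2 fold change was -3.45 ± 0.290 (SE) in the cortex (adjusted p = 4.40e-05), -1.84 ± 0.390 in the hippocampus (adjusted p = 0.936) and -1.48 ± 0.333 in the olfactory bulb (adjusted p = 0.877). Without the hippocampus library of low Rn45s the hippocampal fall was called (-2.10, limma adjusted p = 0.0294; 0.0294 to 1.00 over the alternatives), and DESeq2 called that of the olfactory bulb (adjusted p = 0.0257). The labels do not say that libraries of a group came from separate animals, so p-values measure the spread between these libraries, which may be technical.

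The first comparison asked how the subunits changed as astrocytes matured from P1 to P14. In all 3 regions the 4 genes of the chromosome 5 cluster, Gabra2, Gabra4, Gabrb1 and Gabrg1, rose, by 2.42-fold (Gabra4, hippocampus) to 22.8-fold (Gabrg1, olfactory bulb). Gabra3, Gabra5 and Gabrb2 fell in the cortex, to between 0.0537 (Gabra5) and 0.159 (Gabra3) times their P1 level, and were not called in the hippocampus or olfactory bulb. A gene was called where limma's p, adjusted over all genes tested in the table by Benjamini-Hochberg, was under 0.05, and folds are of the value + 1. In the cortex 4 of the 7 were called higher and 3 lower, beside 24% of all 11822 genes called higher and 40.3% lower. In the hippocampus 4 were called higher and 0 lower, beside 21% and 28.5% of 11578 genes, and in the olfactory bulb 4 and 0, beside 24.8% and 31.4% of 11490. At an unadjusted p under 0.05, 1 of the 7 was lower in the hippocampus and 1 in the olfactory bulb, and edgeR and DESeq2 called 0 lower in either. The median log2 change of the 7 was 1.71 in the cortex, 1.27 in the hippocampus and 3.11 in the olfactory bulb, where the medians of all genes were -0.27, -0.29 and -0.24. Under TMM scaling the all-gene median in the cortex moved to 0.01 and the share of higher genes among the called from 37.4% to 51.0%, and the 7 calls stood. No difference between regions was tested, since each region's table was scaled by itself.

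**Figure D1:**
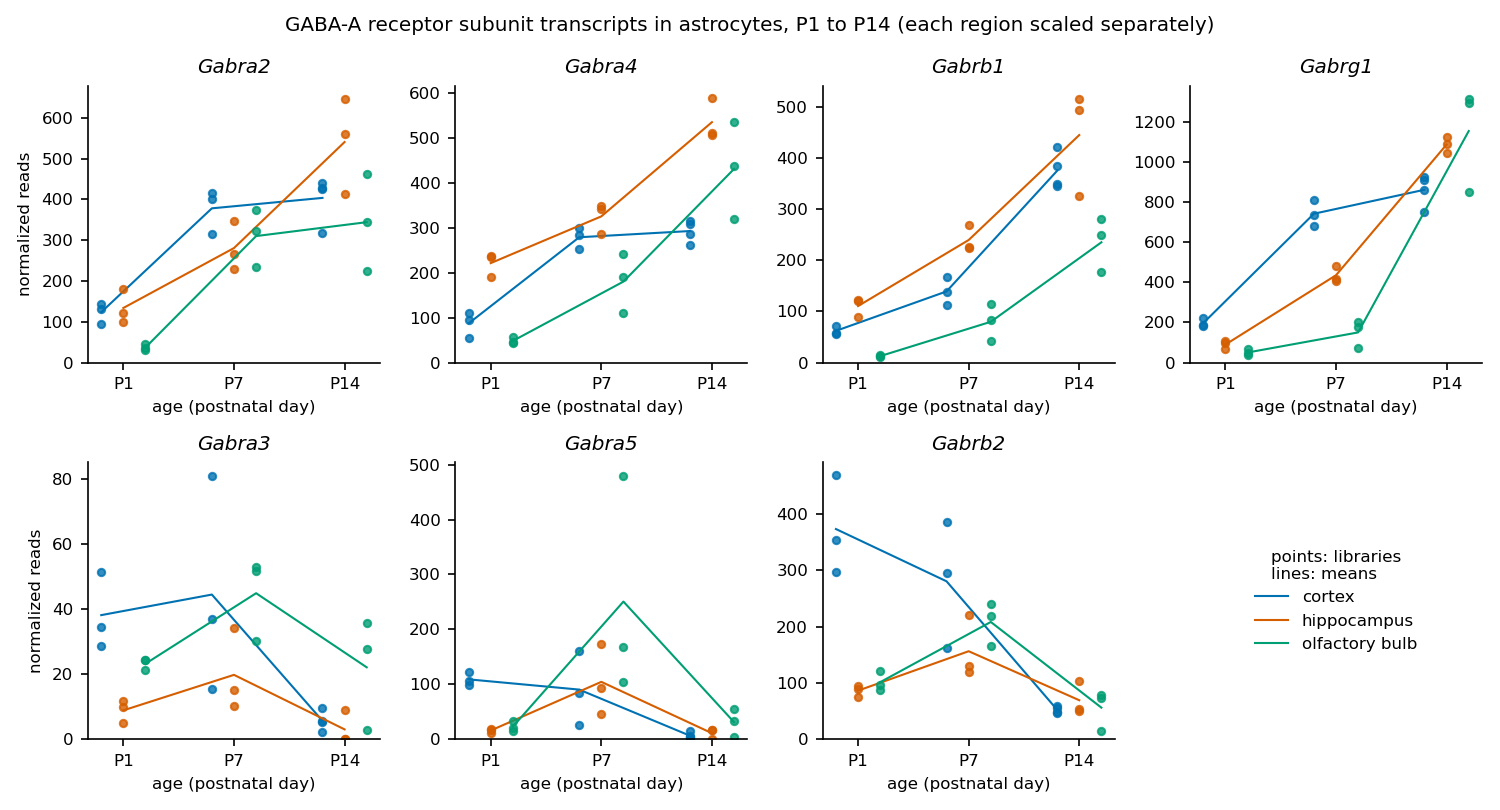
Normalized reads (vertical axis, linear, from 0) of each subunit transcript at P1, P7 and P14 in the cortex, hippocampus and olfactory bulb, with 1 point per library and lines joining group means. The 4 cluster genes in the upper row are lowest at P1 in every region, whereas Gabra5 and Gabrb2 in the lower row are lower at P14 than at P7 in every region.

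Gabrg1, the gamma subunit gene, had the highest level per kilobase of exon of the 7 at P14. In the cortex it measured 221, 188 and 181 normalized reads at P1, 679, 811 and 737 at P7 and 910.3, 927, 749.9 and 862 at P14. Its P1 libraries lay below all others, and those of P7 and P14 overlapped. In the hippocampus it measured 97.2, 65.9 and 106 normalized reads at P1, 409, 418 and 481 at P7 and 1046, 1125 and 1093 at P14. Its olfactory bulb values were 36.9, 67.4 and 46.3 normalized reads at P1, 175, 204 and 71.8 at P7 and 1316, 1297 and 852 at P14. Libraries of the 3 ages did not overlap in either of these regions, and the olfactory bulb libraries stayed low at P7. From P1 to P14 the log2 change was 2.13 ± 0.108 (SE) in the cortex (limma adjusted p = 2.03e-09), 3.61 ± 0.182 in the hippocampus (limma adjusted p = 3.38e-08) and 4.51 ± 0.370 in the olfactory bulb (limma adjusted p = 2.61e-06). Ages that did not overlap, here and for the genes below, were common among all genes. From P1 to P14 this held for 63.7%, 54.7% and 62.2% of all genes in the cortex, hippocampus and olfactory bulb. From P1 to P7 it held for 53.5%, 49.9% and 47.3%, and from P7 to P14 for 50.5%, 41.3% and 52.7%.

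Gabra2 and Gabra4 were the alpha subunit genes that rose. Gabra2 measured 94.9, 143.8 and 132 normalized reads at P1, 316, 401 and 417 at P7 and 429, 319, 441 and 426 at P14 in the cortex. In the hippocampus it measured 121, 100.2 and 180.0 normalized reads at P1, 229, 265 and 348 at P7 and 561, 647 and 414 at P14, and in the olfactory bulb 45.2, 30.8 and 35.3 normalized reads at P1, 373, 323 and 234 at P7 and 463, 345 and 225 at P14. In every region its P1 libraries lay below all later ones, and in the olfactory bulb it was already within its P14 range at P7. Gabra4 measured 55.7, 95.5 and 110.1 normalized reads at P1, 252, 285 and 299 at P7 and 286, 315, 261 and 307 at P14 in the cortex. In the hippocampus it measured 235, 191 and 237 normalized reads at P1, 286, 348 and 342 at P7 and 509, 506 and 588 at P14. In the olfactory bulb it measured 55.9, 44.9 and 43.6 normalized reads at P1, 241, 190.1 and 109 at P7 and 437, 535 and 319 at P14. Its cortex libraries of P7 and P14 overlapped, while in the hippocampus and olfactory bulb the 3 ages were separate. Between P1 and P14 Gabra2 changed by 1.71 ± 0.163 log2 (SE) in the cortex, 2.02 ± 0.251 in the hippocampus and 3.14 ± 0.282 in the olfactory bulb, with limma adjusted p-values of 8.30e-07, 4.63e-05 and 5.11e-06. Gabra4 changed by 1.79 ± 0.188, 1.27 ± 0.156 and 3.11 ± 0.294, with limma adjusted p-values of 2.13e-06, 4.20e-05 and 7.31e-06.

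Gabrb1 was the beta subunit gene that rose. It measured 58.2, 71.5 and 56.5 normalized reads at P1, 113, 167 and 138 at P7 and 422, 384, 346 and 349 at P14 in the cortex. Its hippocampal values were 123, 120.3 and 89.1 normalized reads at P1, 226, 223 and 269.7 at P7 and 493, 326 and 516 at P14, and in the olfactory bulb 13.98, 12.3 and 11.6 normalized reads at P1, 83.0, 114 and 42.1 at P7 and 280.3, 249 and 176 at P14. Libraries of the 3 ages were separate in each region, beside the shares of all genes given above for pairs of ages. The log2 change from P1 to P14 was 2.58 ± 0.151 (SE), 1.98 ± 0.216 and 4.09 ± 0.356 in the cortex, hippocampus and olfactory bulb, with limma adjusted p-values of 7.79e-09, 1.62e-05 and 4.05e-06. These 12 rises of the cluster genes were called with any 1 library of the compared ages left out and under every other alternative run. So were the 3 falls in the cortex, except that Gabra3 and Gabra5 were not tested there at a minimum mean of 100.

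Gabrb2, the other beta subunit gene, took the opposite course in the cortex. It measured 469, 355 and 297 normalized reads at P1, 295, 161.6 and 386 at P7 and 46.2, 55.97, 58.3 and 48.3 at P14 there, and its P14 libraries lay below all others. In the hippocampus the values were 89.7, 74.8 and 94.0 normalized reads at P1, 118.96, 129.5 and 220.5 at P7 and 49.4, 54.0 and 104 at P14, and in the olfactory bulb 122, 95.6 and 86.6 normalized reads at P1, 240.3, 219 and 166 at P7 and 73.5, 15.2 and 79.1 at P14. In both of these regions all P7 libraries were above all P1 and all P14 libraries, but from P1 to P7 49.9% of all genes in the hippocampus and 47.3% in the olfactory bulb did not overlap either. The log2 change of Gabrb2 in this step was 0.80 ± 0.334 (SE) in the hippocampus (limma adjusted p = 0.133, range 0.0173 to 0.4664 across the alternatives, DESeq2 0.0483). In the olfactory bulb it was 1.03 ± 0.506 (limma adjusted p = 0.25, range 0.00254 to 0.52), and neither was called by limma. Between P1 and P14 Gabrb2 fell by 2.80 ± 0.245 log2 (SE) in the cortex (limma adjusted p = 3.59e-07). In the hippocampus the change was -0.39 ± 0.334 (limma adjusted p = 0.36) and in the olfactory bulb -1.14 ± 0.506 (limma adjusted p = 0.0749). The olfactory bulb fall was called without P14 replicate 1 (-1.49, limma adjusted p = 0.0378) or replicate 3 (-1.54, 0.0295), over a range of 0.0295 to 0.184 across the alternatives.

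Gabra5, the alpha subunit gene of extrasynaptic hippocampal receptors, had the largest fall in the cortex among the 7. In the cortex it measured 98.3, 107 and 122 normalized reads at P1, 83.7, 25.5 and 161.3 at P7 and 4.92, 14.5, 4.10 and 1.56 at P14. Its hippocampal values were 11.8, 17.8 and 17.2 normalized reads at P1, 45.9, 93.8 and 173 at P7 and 16.1, 0 and 16.1 at P14, and in the olfactory bulb 32.3, 14.5 and 21.0 normalized reads at P1, 479.9, 167 and 104 at P7 and 3.98, 33.1 and 55.5 at P14. In both of these regions the libraries were all higher at P7 than at either other age, but they spread widely at that age, with a coefficient of variation of 61.6% and 80.3%. In the cortex the change from P1 to P14 was -4.22 ± 0.592 log2 (SE, limma adjusted p = 3.00e-05), and the hippocampal libraries held 15, 0 and 9 reads of it at P14.

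Gabra3, an alpha subunit gene of immature cortex, fell in the cortex as well. In the cortex it measured 51.4, 28.7 and 34.4 normalized reads at P1, 36.9, 15.5 and 81.1 at P7 and 5.30, 5.66, 9.46 and 2.08 at P14. In the hippocampus the values were 9.97, 4.90 and 11.7 normalized reads at P1, 10.3, 15.0 and 34.1 at P7 and 0, 0 and 8.96 at P14, from 0, 0 and 5 reads at P14, and in the olfactory bulb 21.2, 24.2 and 24.3 normalized reads at P1, 51.6, 52.9 and 30.3 at P7 and 35.8, 2.76 and 27.8 at P14. Its P14 libraries of the cortex lay below all earlier ones, and in the other regions P1 and P14 overlapped. The change from P1 to P14 was -2.65 ± 0.523 log2 (SE) in the cortex (limma adjusted p = 5.53e-04), -2.12 ± 0.914 in the hippocampus (limma adjusted p = 0.0735) and -0.61 ± 0.719 in the olfactory bulb (limma adjusted p = 0.491). Without hippocampus P14 replicate 3, which held all of its P14 reads, the fall in the hippocampus was called (-3.23, limma adjusted p = 0.0028, range 0.0028 to 0.984 across the alternatives).

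The steps from P1 to P7 and from P7 to P14 asked when the changes took place. In the cortex Gabra2, Gabra4 and Gabrg1 rose in the first step, which held 94.6%, 96.1% and 89.9% of their log2 change from P1 to P14, whereas Gabrb1 rose in both, with 44.3% by P7. By P7 Gabra2 had made 96.3% of its change in the olfactory bulb and Gabrg1 32.7%. Gabra5 fell after P7 in every region, and Gabrb2 likewise. From P1 to P7, 4 of the 7 were called higher and 0 lower in the cortex, beside 15.6% and 18.1% of all genes, and 4 and 0 in the hippocampus, beside 11.2% and 6.92%. In the olfactory bulb 5 and 0 were called, beside 7.59% and 2.98%. No member was lower in this step at an unadjusted p under 0.05, or by edgeR or DESeq2, in any region. From P7 to P14, 1 was called higher and 3 lower in the cortex, beside 18.6% and 31.3% of all genes, 4 and 3 in the hippocampus, beside 12.5% and 17.7%, and 3 and 2 in the olfactory bulb, beside 20.4% and 26.6%. In the cortex TMM moved the share of higher genes among the called from 46.4% to 57.2% in the first step and from 37.3% to 52.9% in the second.

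**Figure D2:**
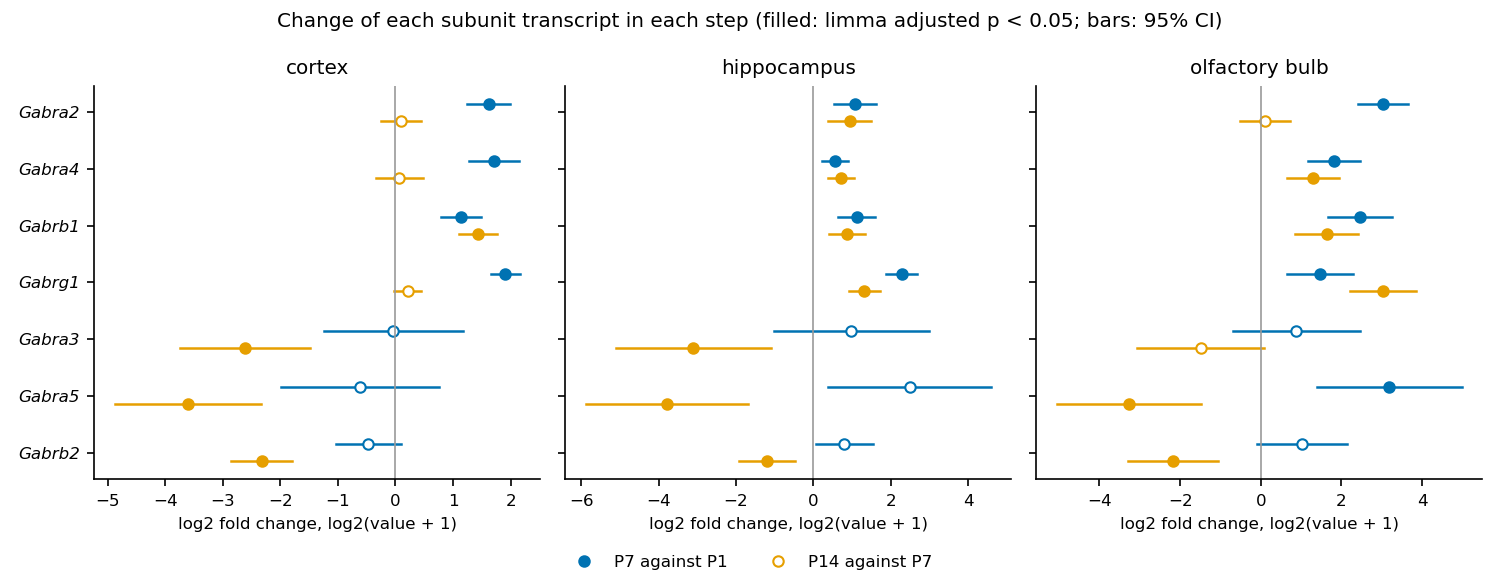
Log2 fold change, on the log2(value + 1) scale, of each subunit transcript from P1 to P7 (blue) and from P7 to P14 (orange) in each region, with bars for the 95% confidence interval and filled points where the limma adjusted p was under 0.05. Gabra5 and Gabrb2 lie left of 0 from P7 to P14 in all 3 regions, and Gabrg1 lies farther right in the second step than in the first in the olfactory bulb.

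In the first step Gabrg1 rose by 1.91 ± 0.115 log2 (SE) in the cortex, 2.29 ± 0.182 in the hippocampus and 1.47 ± 0.370 in the olfactory bulb, with limma adjusted p-values of 1.07e-07, 4.95e-06 and 0.0276. In the second step it changed by 0.21 ± 0.108 in the cortex (limma adjusted p = 0.115, but 0.00944 with TMM scaling, 0.0175 by edgeR and 0.00545 by DESeq2), 1.32 ± 0.182 in the hippocampus (3.55e-04) and 3.04 ± 0.370 in the olfactory bulb (8.00e-05). Gabrb1 was called higher in both steps in all 3 regions. Gabra5 rose from P1 to P7 in the olfactory bulb by 3.18 ± 0.815 (limma adjusted p = 0.03), and the hippocampal value of 2.49 ± 0.959 was not called (limma adjusted p = 0.103). It was called there by edgeR (0.0147) and DESeq2 (7.09e-04), in an adjusted p range of 6.24e-04 to 0.377. From P7 to P14 Gabra5 fell by 3.60 log2 in the cortex, 3.79 in the hippocampus and 3.27 in the olfactory bulb, and Gabrb2 fell by 2.32, 1.19 and 2.17. The limma adjusted p-values of these falls ran from 6.22e-06 to 0.0196. Gabra3 fell in this step in the cortex (-2.62, limma adjusted p = 0.00105) and hippocampus (-3.10, 0.0245), the latter with 0.0655 by edgeR and 0.463 after quantile normalization.

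Several calls between neighbouring ages were lost or gained when 1 library was left out. The first-step rise of Gabra5 in the olfactory bulb was lost without any 1 of the P1 replicates or P7 replicate 1 or 2 (limma adjusted p = 0.0602 to 0.146). That of Gabrg1 was lost without P1 replicate 1 or 3 or P7 replicate 1 or 2 (0.0937 to 0.135), which left 3 called members. The hippocampal first-step rise of Gabra4 was lost without any 1 of the P1 replicates or P7 replicate 2 or 3 (0.054 to 0.119), and that of Gabra2 without P7 replicate 3 (0.0581), which left 2 called. In the second step in the hippocampus, the falls of Gabra3 (0.0917), Gabra5 (0.057) and Gabrb2 (0.0896) were lost without P7 replicate 3, which left 4 called. Without P7 replicate 2 those of Gabra3 (0.067) and of the rising Gabra2 (0.0586) and Gabrb1 (0.0513) were lost, which also left 4. Gabra2 was lost without P7 replicate 1 (0.071), and Gabra3 without P14 replicate 1 or 2 (0.0593, 0.0542). Calls were gained for Gabrb2 in the first step in the cortex without P7 replicate 3 (0.0387), for Gabrg1 in the second step in the cortex without P14 replicate 3 (0.0495), and for Gabra3 in the second step in the olfactory bulb without P14 replicate 1 (0.0332).

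To compare levels between genes, normalized reads were divided by the kilobases of annotated exon of each gene. At P1 in the cortex the order was led by Gabrb2 with 58.8 ± 13.8 normalized reads per kb (SD, n = 3). Gabra5 followed with 36.6 ± 3.98 and Gabrg1 with 25.0 ± 2.72, and with this length these 3 did not overlap. The order of Gabra5 and Gabrg1 depended on the gene length used. Per kilobase of the longest coding transcript, Gabrb2 still led with a mean of 93.68, but Gabrg1 had 41.28 and Gabra5 40.74. At P14 Gabrg1 led in every region, with 109.6 ± 10.1 per kb in the cortex (n = 4), 138 ± 5.04 in the hippocampus and 146.8 ± 33.3 in the olfactory bulb (n = 3 each), above every library of the next gene. Gabra2 and Gabra4 came next and overlapped, with means in the same order of regions: Gabra2 had 52.8 ± 7.46, 70.8 ± 15.4 and 45.1 ± 15.6, and Gabra4 48.1 ± 3.98, 87.8 ± 7.58 and 70.8 ± 17.7. Per kilobase of the longest coding transcript, the cortex mean of Gabra4 was above that of Gabra2. Gabrb1 followed with 27.1 ± 2.56, 32.2 ± 7.48 and 17.0 ± 3.86 per kb of exon. Hippocampus at P1 was led by Gabra4 (36.3 ± 4.27), and olfactory bulb at P1 by Gabrb2 (15.9 ± 2.85), each above all libraries of the next gene. At P7 Gabra5 had the highest mean in the olfactory bulb, 84.2 ± 67.6, but its range overlapped that of Gabra2.

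Counted per kilobase, the make-up of the 7 transcripts turned over in the cortex. Gabra5 made up 47.7% ± 1.38 (SD, n = 3) of the 4 alpha transcripts at P1 and 2.06% ± 1.93 (n = 4) at P14, while Gabra2 went from 21.0% ± 3.002 to 50.5% ± 5.95 and Gabra4 from 18.3% ± 4.21 to 46.1% ± 4.57. Gabrb1 went from 7.30% ± 1.67 to 76.7% ± 3.15 of the sum of the 2 beta transcripts. The 4 cluster genes together were 36.5% ± 4.76 of the 7 at P1, 71.1% ± 12.6 at P7 and 95.3% ± 1.203 at P14. In the hippocampus this share was 77.6% ± 1.11, 72.8% ± 7.90 and 95.6% ± 2.23, so that it was high from P1 on, and in the olfactory bulb 40.8% ± 3.70, 44.4% ± 7.99 and 91.1% ± 6.13, with the turn after P7. In the hippocampus Gabra4 already held 59.6% ± 4.43 of the alpha transcripts at P1. At P28 the share of the cluster genes in controls was 96.3% ± 1.81 in the cortex (n = 4), 94.9% ± 0.316 in the hippocampus (n = 2) and 86.5% ± 4.25 in the olfactory bulb (n = 3). In cKO it was 96.3% ± 2.12, 93.8% ± 5.72 and 86.8% ± 4.30, and the ranges of control and cKO overlapped in each region.

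**Figure D3:**
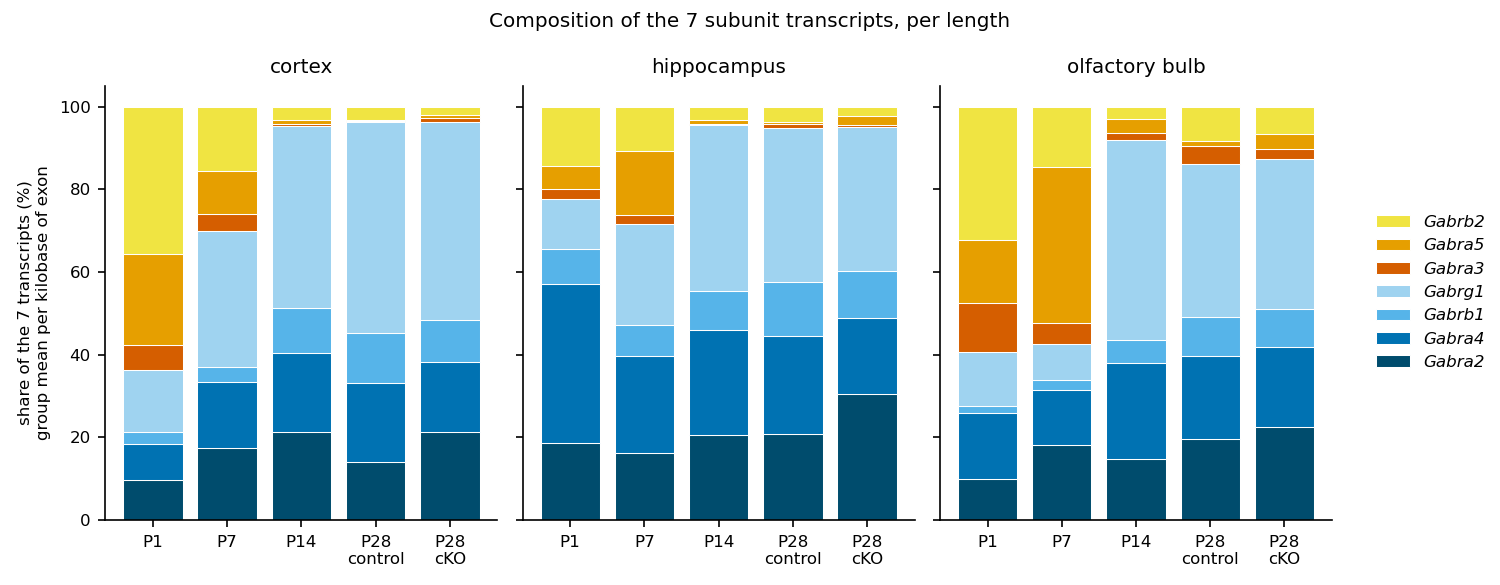
Share of each of the 7 subunit transcripts (vertical axis, percent of the summed group means per kilobase of exon) at P1, P7, P14 and P28 in each region, with the 4 chromosome 5 genes in blues and Gabra3, Gabra5 and Gabrb2 in orange to yellow. The blue segments fill most of every P14 and P28 bar, while the orange and yellow segments are large at P1 in the cortex and at P1 and P7 in the olfactory bulb.

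Markers of other cells moved with age as well. The summed level of the 13 neuron markers was 7963 to 11229.5 normalized reads in the cortex at P1, 1841 to 4691 at P7 and 291 to 552 at P14. It was 7148 to 9184, 1726 to 2839 and 453 to 681 in the hippocampus, and 15646 to 18920.1, 9720.5 to 15084 and 2019 to 3188 in the olfactory bulb. At P14, 11, 10 and 10 of these 13 were called lower than at P1 and 0, 0 and 1 higher, and only Neurod6 was at 0 in every library of a group, olfactory bulb at P14. The sum was lower at each later age, without overlap, but single markers differed: at P7, 0, 1 and 3 of the 13 were called higher than at P1 and 6, 4 and 1 lower in the cortex, hippocampus and olfactory bulb, with median log2 changes of -1.17, -0.08 and -0.37. Within groups, the correlation of log2 levels with the neuron sum over the 10 cortex libraries was 0.94 for Gabra3, 0.79 for Gabra5 and 0.82 for Gabrb2. Over the 9 hippocampus libraries it was -0.07, -0.29 and 0.20, and over the 9 olfactory bulb libraries -0.70, 0.51 and -0.56. In the cortex the same 3 genes, in that order, had -0.69, -0.82 and -0.79 with the oligodendrocyte precursor sum. They had -0.74, -0.55 and -0.66 with the microglia sum and -0.62, -0.33 and -0.69 with the astrocyte sum. The mature oligodendrocyte and endothelial sums gave -0.45 to -0.0020. For the 4 cluster genes in the cortex the neuron sum gave -0.37 to -0.16. Depth differed between libraries of a group, and these values are descriptions. The astrocyte sum in the hippocampus was 13574 to 15609 at P1 and 426364 to 460487 at P14, and in the olfactory bulb 5048 to 7168 and 124173 to 141103. The sum of the 8 mature oligodendrocyte markers was 336 to 394 at P1 and 15297 to 26088 at P14 in the cortex. It was 76.9 to 93.6 and 1603 to 2312 in the hippocampus, and 103 to 201 and 1933 to 2242 in the olfactory bulb, with Opalin at 0 in every group of P1 to P14 except cortex at P14. From P1 to P14, 8 of 8 microglia markers tested in the cortex, 3 of 5 in the hippocampus and 4 of 5 in the olfactory bulb were called higher and 0 lower. Of 6 endothelial markers 0, 0 and 6 were called higher and 0, 2 and 0 lower, and of 6 oligodendrocyte precursor markers 2, 2 and 4 higher and 2, 1 and 0 lower. Of all genes, 24%, 21% and 24.8% were called higher from P1 to P14 in the same order of regions and 40.3%, 28.5% and 31.4% lower. From P1 to P7 these shares were 15.6%, 11.2% and 7.59% higher and 18.1%, 6.92% and 2.98% lower. Some of the marker counts are near these shares. The part of other cells in the subunit changes was not tested, and in these bulk libraries fewer cells of a type and less RNA per cell cannot be told apart.

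The genes beside the cluster were measured to see whether its rise was shared. Gnpda2, a glucosamine-6-phosphate deaminase gene, was called higher at P14 than at P1 in all 3 regions, by 0.73 ± 0.134 log2 (SE) in the cortex, 1.35 ± 0.190 in the hippocampus and 1.90 ± 0.214 in the olfactory bulb (limma adjusted p = 3.10e-04, 1.22e-04 and 2.65e-05). Commd8 was called higher in the cortex (0.56, limma adjusted p = 0.00123) and olfactory bulb (1.15, 6.70e-04), and its value of 0.54 in the hippocampus was not called (0.0729). Each neighbour's estimate was below that of each cluster gene in the same region, except Gnpda2 in the hippocampus, which exceeded Gabra4's 1.27. These differences between genes were not tested. Cox7b2, which lies between Gabra2 and Gabra4, was close to 0, with group means of 0.1187 to 10.2 normalized reads from P1 to P14, and did not pass the filter in those tables.

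Genes that anchor or move GABA-A receptors were counted from a list of 25, of which 23 were in the tables, and all 23 were tested. Between P1 and P14, 7 were called higher and 9 lower in the cortex, 9 and 7 in the hippocampus, and 5 and 7 in the olfactory bulb. Of all genes, 24% were called higher and 40.3% lower in the cortex, 21% and 28.5% in the hippocampus, and 24.8% and 31.4% in the olfactory bulb. The list's median log2 change was -0.12, 0.29 and 0.08, beside all-gene medians of -0.27, -0.29 and -0.24. Among those called higher in all 3 regions were Mdga2, which binds neuroligins (0.96, 2.88 and 2.74 in the cortex, hippocampus and olfactory bulb), Clptm1, which holds subunits back in the secretory pathway (1.13, 1.16 and 1.08), and the transport adaptor Trak2 (0.77, 0.77 and 0.84). Called lower in all 3 were Mdga1 (-2.18, -6.54 and -4.13), the GABA-A auxiliary subunit gene Shisa7 (-3.18, -4.28 and -5.14), the inhibitory synapse adhesion gene Slitrk3 (-3.20, -5.01 and -4.36) and Plcl2 (-0.70, -1.45 and -3.01). The paralogs Mdga1 and Mdga2 thus went opposite ways in every region.

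Chloride transport sets the direction of GABA-A currents, and its list held 14 genes, of which 13 were tested. From P1 to P14, 2 were called higher and 7 lower in the cortex, 3 and 6 in the hippocampus, and 4 and 4 in the olfactory bulb, beside those same shares of all genes, with list medians of -0.39, -0.07 and -0.37 beside all-gene medians of -0.27, -0.29 and -0.24. Slc12a4, a potassium-chloride cotransporter gene, was called higher in all 3 regions (1.91, 1.95 and 3.34). The kinase genes Wnk3 (-1.30, -0.89 and -1.40) and Oxsr1 (-1.23, -1.68 and -0.85), which control such transporters, were called lower in all 3. Of the 12 remaining GABA-A subunit genes of the tables, 4 passed the filter. From P1 to P14, 0 were called higher and 3 lower in the cortex, and 1 and 2 in the hippocampus and in the olfactory bulb. At P28 none of the genes of these 3 lists was called between cKO and control by limma: 0 of 21, 21 and 23 anchoring genes, 0 of 12, 13 and 14 chloride genes and 0 of 2, 3 and 4 subunit genes tested in the cortex, hippocampus and olfactory bulb.

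The genes with the most similar course were found by the mean, over the 3 regions, of Pearson's r of log2(value + 1) across the 10, 9 and 9 libraries of P1 to P14, among 10838 genes tested in all 3 tables. Gabrg1 was most like Slc1a3 (mean r 0.99), the gene of the astrocyte glutamate transporter GLAST, with Hapln1 also among the nearest 3. Gabrb1 was most like Fgfr3 (0.98), followed by Lsamp and Htra1. For Gabra4 the nearest was Car10 (0.97), then Lrrc16a and Tmem106b, and for Gabra2 it was Csgalnact1 (0.94), then Gabra4 and Sqrdl. Gabra3 and Gabrb2 were each other's nearest gene (0.93), and Gabra3 was followed by Gpr22 and Hexdc, Gabrb2 by the synaptic genes Dnm1 and Pclo. Gabra5 was most like Vstm2a (0.93), then Ryr2 and Disp2. All these libraries share the course of age, and r is given as a description.

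The second comparison asked whether loss of Gabbr1 changed the subunits at P28. No member was called in any region: 0 of 5 tested in the cortex, 0 of 6 in the hippocampus and 0 of 7 in the olfactory bulb, beside 0.00982%, 0% and 0% of all genes. At an unadjusted p under 0.05 the counts were 0, 0 and 0 of the members by limma, and 221, 296 and 349 of all 10188, 11639 and 11539 genes tested. The members' counts were 0 by edgeR and DESeq2 as well. Gabra3 and Gabra5 in the cortex and Gabra3 in the hippocampus were below the filter. Tested on simulated counts for the cortex comparison, over 10188 genes, the same fit recovered 12% of 2-fold and 57% of 4-fold changes. The simulation changed 200 genes drawn at random from all levels, and 8% of its calls were false. In the data 1 gene was called in the cortex. With so few calls the adjusted threshold is stricter, so that recovery may be lower there.

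Gabrg1 measured 955, 701, 983 and 857 normalized reads in control and 765, 886, 1049 and 886 in cKO cortex libraries, a log2 difference of 0.04 (95% interval -0.35 to 0.43). The groups overlapped. In the hippocampus it measured 436 and 528 normalized reads in control and 626, 1024, 596 and 639.9 in cKO, a difference of 0.55 (-0.13 to 1.23), and there all 4 cKO libraries were above both controls. In the olfactory bulb it measured 509, 792 and 654 normalized reads in control and 759, 600.2 and 789.6 in cKO (0.15, -0.38 to 0.68), and the groups overlapped again. Gabra4 measured 249, 272, 246 and 230.2 normalized reads in control and 252, 280.1, 257 and 199.6 in cKO in the cortex, a difference of -0.02 (-0.44 to 0.40). It differed by 0.29 (-0.38 to 0.96) in the hippocampus and by 0.13 (-0.48 to 0.74) in the olfactory bulb. Gabrb1 measured 365, 329, 326 and 443 normalized reads in control and 271, 286, 440.3 and 333 in cKO in the cortex (-0.15, -0.60 to 0.30), with overlapping groups, and differed by 0.49 (-0.17 to 1.15) in the hippocampus and 0.18 (-0.66 to 1.01) in the olfactory bulb. In the hippocampus the groups did not overlap for 3 of the 6 members tested, Gabra4, Gabrb1 and Gabrg1, each higher in cKO, beside 15% of all genes. In the cortex this held for 0 of 5 members, beside 1.89% of all genes, and in the olfactory bulb for 0 of 7, beside 10%. The limma adjusted p of these 3 genes in the hippocampus was 0.936 each, and the highest cKO library for each was replicate 2, one of those with little Rn45s. Without it the differences were 0.15, 0.35 and 0.37. The astrocyte marker sum was 162355 to 179781 in hippocampal controls and 125926 to 378375 in cKO, and that of mature oligodendrocytes 4127 to 6638 and 5094 to 17622, and their part was not tested. Without olfactory bulb control replicate 2 the differences there were -0.02 for Gabra4, -0.27 for Gabrb1 and 0.30 for Gabrg1. Within the 5 cortex libraries without a treatment label they were 0.01, -0.09 and 0.13, and the other 3 held 1 cKO, too few for a value of their own.

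Of the other members, only Gabrb2 and Gabra2 were tested in all 3 regions. Gabrb2 measured 69.7, 35.0, 14.3 and 53.9 normalized reads in control and 8.98, 34.6, 27.97 and 51.8 in cKO in the cortex, 41.5 and 33.8 normalized reads in control and 7.75, 17.3, 51.9 and 74.7 in cKO in the hippocampus and 64.3, 151.5 and 141 normalized reads in control and 76.5, 92.6 and 142.7 in cKO in the olfactory bulb. The groups overlapped in all 3 regions, with log2 differences of -0.49 (-1.71 to 0.72), -0.44 (-2.40 to 1.51) and -0.15 (-1.05 to 0.76). Gabra5 ranged from 0 to 44.7 normalized reads over the 20 libraries. Its differences of 1.76 (-2.18 to 5.69) in the hippocampus and 2.37 (-0.14 to 4.89) in the olfactory bulb had the widest intervals of the members tested. In the olfactory bulb Gabra3 passed the filter, with 19.5, 56.2 and 38.8 normalized reads in control and 17.2, 25.9 and 28.3 in cKO (-0.57, -1.79 to 0.66). Its highest library there was control replicate 2, the other library with little Rn45s, and without it the difference was -0.24. Without that library Gabra5 differed by 1.23 and Gabrb2 by 0.07 in the olfactory bulb. Without hippocampus cKO replicate 2 they differed by 2.79 and -0.23 in the hippocampus. In the 5 cortex libraries without a treatment label Gabrb2 differed by -1.21. In the cortex and hippocampus Gabra3 ranged from 1.10 to 22.0. At this depth and number of libraries the differences of these 3 genes could not be told from 0.

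**Figure D4:**
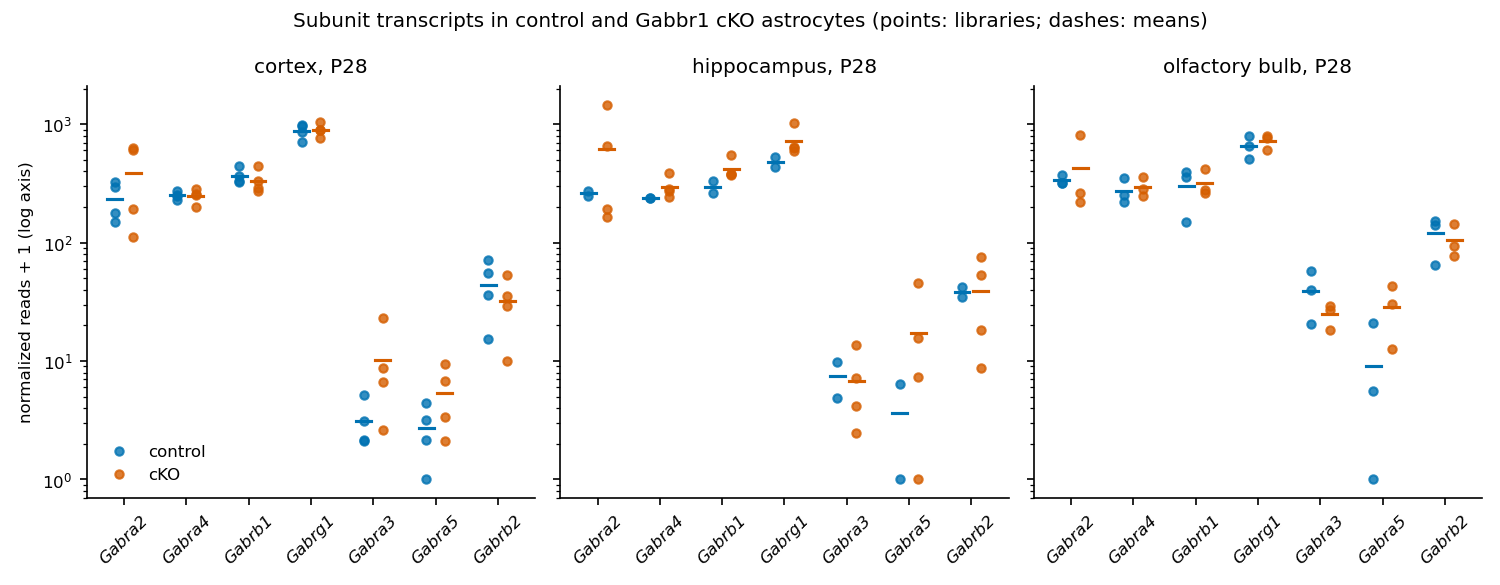
Normalized reads + 1 (vertical axis, log scale) of each subunit transcript in the P28 libraries of control (blue) and Gabbr1 cKO (orange) animals, with 1 point per library and dashes for group means. Control and cKO points lie in the same range for most genes, and the Gabra2 points of cKO spread from below to far above those of control.

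Of the 4 cluster genes, Gabra2 spread most among the P28 cKO libraries of each region. It measured 176, 321, 293 and 148.7 normalized reads in control and 608, 627, 110.3 and 193 in cKO in the cortex, 246 and 274 normalized reads in control and 649, 1459, 162.1 and 191 in cKO in the hippocampus and 318, 371 and 319.8 normalized reads in control and 806, 220.0 and 261 in cKO in the olfactory bulb. In each region the highest and the lowest library were both cKO. Its coefficient of variation among cKO libraries was 70.5%, 98.4% and 76.3% in the cortex, hippocampus and olfactory bulb, where that of Gabra4 was 13.8%, 21.5% and 18.5%. Of the members at lower levels, some spread more in the cortex or hippocampus. In the same order of regions the values were 96.4%, 83.8% and 24.5% for Gabra3 and 74.6%, 120.5% and 55.1% for Gabra5. For Gabrb2 they were 57.4%, 81.7% and 33.2%. Among controls the coefficient of variation of Gabra2 was 36.2%, 7.51% and 8.96%. The log2 differences between cKO and control were 0.43 (-0.56 to 1.42), 0.67 (-1.07 to 2.41) and 0.10 (-0.84 to 1.03), with 0.55 in the 5 cortex libraries without a treatment label. Without hippocampus cKO replicate 2, the highest library, the second was 0.07, and without olfactory bulb cKO replicate 1 the last was -0.48.

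The Gabra2 values followed the running library numbers of the labels across regions, a pattern seen in the data and not tested. The cKO libraries YC145 (cortex) and YC146 (hippocampus) had 608 and 649 normalized reads, and the cKO libraries YC151 (cortex), YC152 (hippocampus) and YC153 (olfactory bulb) had 627, 1459 and 806. The cKO libraries YC154, YC155 and YC156, in the same order of regions, had 110.3, 162.1 and 220.0, and YC159, YC160 and YC161 had 193, 191 and 261. The 5 highest of the 20 libraries were thus YC145, YC146, YC151, YC152 and YC153. Of the other cKO libraries, YC159 lay within the range of the cortex controls (148.7 to 321), and the rest lay below all controls of their region. In all 11 cKO libraries, Gabra4 lay between 199.6 and 386, with its highest value also in YC152. Both Gabra2-rich sets are cKO, so that the number and the genotype cannot be told apart for them. The other 6 cKO libraries carry the same genotype label, and the part of genotype was not tested. The labels do not say whether adjoining numbers came from one animal, and they give no strain.

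**Figure D5:**
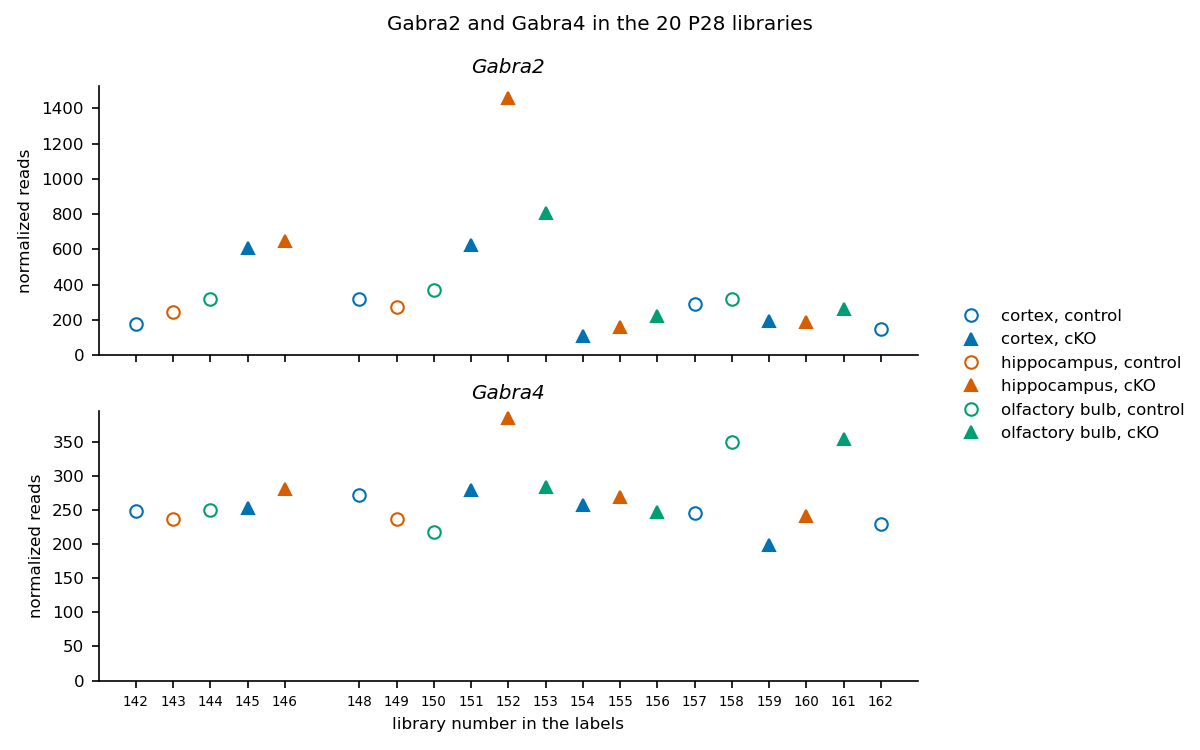
Normalized reads (vertical axes, from 0) of Gabra2 (top) and Gabra4 (bottom) in the 20 P28 libraries, ordered by the library number in the labels, with colour for region, open circles for control and filled triangles for cKO. Gabra2 is high in libraries YC145, YC146, YC151, YC152 and YC153 of all 3 regions. Gabra4 lies between 199.6 and 386, and its highest library, YC152, is also the highest for Gabra2.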

How the data were processed

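Total RNA of mouse astrocytes was sequenced in 48 libraries, made with a kit for small RNA amounts per the labels' protocols. The authors deposited normalized signal values, each gene's reads divided by 1 factor per library. The submitters' processing notes name STAR 2.5.0a, DESeq2 1.20.0 and the build mm10. The counter, how it treated strand and the annotation are not given in the sources used here. In each library 100% of values were whole multiples of the smallest step within 0.01, and the reads recovered this way were 1773226 to 15008466 per library. In olfactory bulb P28 cKO replicate 2 the step is close to 1 normalized read, so that the check says less.

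The 7 members were taken by symbol, and groups from the labels. Values were tested as log2(value + 1) with limma 3.58.1 (R 4.3.3, trend on), over genes with a mean of at least 10 in the table, with Benjamini-Hochberg adjustment over all of them and a threshold of 0.05. The 3 ages of a region shared 1 fit, and P28 was fitted per region. edgeR 4.0.16 and DESeq2 1.42.0 on the recovered reads were alternatives, and edgeR called 7408, 5469 and 6399 genes from P1 to P14 in the cortex, hippocampus and olfactory bulb, where limma called 7608, 5732 and 6449. Other alternatives were pseudocounts of 0.1 and 8, no filter or a minimum mean of 100, and TMM and quantile scaling. Fits of 2 ages at a time and with each library left out were also run. For cortex at P28, the round of deposit was a covariate, or its first round was fitted alone. The first round held the 5 libraries without a treatment label, so round and label cannot be told apart there. The longest coding transcript as gene length was added after seeing the data. Lengths and positions are GENCODE's. Replicates all differed beyond counting noise. On simulated counts for cortex P14 against P1, limma recovered 62% of 2-fold and 90% of 4-fold changes. These counts held 11822 genes, 200 of them changed, and 5% of the calls were false.

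The members, gene lists and tests were chosen with earlier results of these data known. Besides the members and Gabbr1, the genes named are list genes called in 1 direction from P1 to P14 in all 3 regions (at most 4 a list and direction, by mean change), the 3 genes most alike for each member, and the neighbours of the cluster. The remaining GABA-A subunit genes are given by counts, and some genes that the rule names are not reported here.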

Additional observations from a re-analysis of the deposited data

Results flagged for a closer look

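The members were checked for single libraries far from the rest of their group in the 28 sets of a gene and a group of 4 libraries, where chance picks out about 1 in 20. Gabra2 in cortex P14 replicate 2 was 319 normalized reads, below the other 3 libraries (429, 319, 441 and 426 in order of replicates). Gabrb1 in hippocampus P28 cKO replicate 2 was 553, above the other 3 (377, 553, 377 and 369.6). Gabrg1 in the same library was 1024, again the highest (626, 1024, 596 and 639.9). In each case the gap to the nearest library was large for the range of the group. That hippocampal library is the one with 0.594% of its reads on Rn45s.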

How the results depend on the processing

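Of 1272 single values recomputed under the alternatives, for the members, Gabbr1 and the share of the cluster genes, 1185 kept their direction and side of the threshold, 28 lost a call, 20 gained one and 39 turned sign, each of the last without a call in the main analysis or under the alternative. Counts of called members moved by more than 1.5 times in the cortex from P7 to P14 with a minimum mean of 100, where 2 of the 5 tested were called. With 1 library left out they ran from 2 to 4 in the hippocampus from P1 to P7, from 4 to 7 there from P7 to P14, and from 3 to 5 in the olfactory bulb from P1 to P7.

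Sign turns with 1 library left out were within these ranges of log2 fold change, all from limma. From P1 to P7 in the cortex they were -0.61 to 0.55 for Gabra3 and -1.21 to 0.10 for Gabra5. From P7 to P14 they were -0.031 to 0.20 for Gabra2 and -0.00051 to 0.12 for Gabra4 in the cortex, and -0.13 to 0.39 for Gabra2 in the olfactory bulb. From P1 to P14 they were -1.98 to 0.067 for Gabra5 in the hippocampus, and -1.22 to 0.43 for Gabra3 and -0.79 to 0.97 for Gabra5 in the olfactory bulb. At P28 they were -0.083 to 0.079 for Gabra4 and -0.062 to 0.11 for Gabrg1 in the cortex, and -0.91 to 0.12 for Gabrb2 in the hippocampus. In the olfactory bulb at P28 they were -0.48 to 0.45 for Gabra2, -0.019 to 0.32 for Gabra4, -0.27 to 0.43 for Gabrb1, -0.54 to 0.074 for Gabrb2 and -0.016 to 0.30 for Gabrg1. Other settings turned Gabra3 from P1 to P7 in the cortex to 0.0077 (pseudocount of 8), 0.050 (TMM), 0.13 (quantile), 0.31 (edgeR) and 0.30 (DESeq2). Between P1 and P14 they turned Gabra5 to 0.047 in the hippocampus (quantile), and in the olfactory bulb to 0.084 (pseudocount of 8), 0.26 (quantile), 0.58 (edgeR) and 0.55 (DESeq2). Quantile normalization gave -0.033 for Gabra2 from P7 to P14 in the olfactory bulb. At P28 the 5 cortex libraries without a treatment label gave 0.014 for Gabra4, and edgeR and DESeq2 gave 0.035 and 0.022 for Gabrb2 in the hippocampus. The cause was not tested. DESeq2 called 1 and 22 of all genes at P28 in the hippocampus and olfactory bulb, where limma called 0, and no member. No paired analysis was possible because the labels give the groups no shared replicate numbers. Small counts limit Gabra3 and Gabra5 at P14 and P28, and the number of libraries limits P28.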
